A study of Homo sapiens with 10 samples.

Results

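The ERBB receptors and the machinery that releases their ligands were described in PC3 cells, a human prostate cancer line established from a bone metastasis, treated for 24 h with GW3965 at 1 µM or with the vehicle DMSO. GW3965 is a synthetic ligand that activates the liver X receptors (LXRs), nuclear receptors for oxidized cholesterol. The set held 10 genes of the 62656 in the table. They were chosen by name for their role and not by their own values, but with earlier results of these data known. They included the 4 receptors EGFR, ERBB2, ERBB3 and ERBB4 and the receptor inhibitors ERRFI1 and LRIG1. The others were the ligand-releasing proteases ADAM17 and ADAM10 and the iRhoms RHBDF1 and RHBDF2. Cells of both conditions were grown in RPMI-1640 with serum, and each condition gave 5 libraries. PC3 is a single cell line, nothing in the sample records says whether the 5 libraries of a condition came from separate cultures, and p-values therefore measure the spread between these libraries only. The values are RPKM (the reads of a gene per kilobase of its length, scaled between libraries) from ribosomal RNA-depleted total RNA, and a gene was tested where its mean over the 10 libraries was at least 0.5 RPKM. This left 20402 genes, among them 8 of the 10 members, while ERBB4 and LRIG1 lay below this minimum.

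ERBB receptors sit in the plasma membrane and signal as pairs. EGFR-type ligands are made as membrane-bound precursors and act once a protease, a sheddase, cuts them loose. ADAM17 and ADAM10 are the main sheddases of these ligands, and the iRhoms are inactive relatives of the rhomboid proteases that carry ADAM17 to the cell surface. ERRFI1 (also called MIG6) binds and blocks the active kinase domain, and LRIG1 is a membrane protein that promotes receptor degradation. In prostate epithelium, EGFR signaling is known for its part in growth and migration.

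The receptors differ in their kinases, and the coding stretch of the catalytic loop shows it. In the sequences that follow, taken from the GENCODE 29 transcripts on GRCh38 and written 5′ to 3′ on the coding strand, capitals mark the codon at the catalytic position.
EGFR: caccgcGACctggcagccagg
ERBB2: cacaggGACttggccgctcgg
ERBB3: catagaAACctggctgcccga
ERBB4: catcggGATttggcagcccgt
All of these stretches lie in exon 21 of their transcript, at chr7:55191752-55191772 on the plus strand for EGFR, chr17:39725082-39725102 on the plus strand for ERBB2, chr12:56097818-56097838 on the plus strand for ERBB3 and chr2:211431047-211431067 on the minus strand for ERBB4. The capitals code for aspartate 837 in EGFR, aspartate 845 in ERBB2 and aspartate 843 in ERBB4, and for asparagine 834 in ERBB3. Counted from 1 at the first base of the EGFR stretch, ERBB3 carries the substitution G7A. ERBB3 is known as a receptor with little kinase activity of its own, which signals through its partners, and ERBB2 as the receptor with no ligand of its own.

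The 2 sheddases share the zinc-binding site of active metalloproteases, shown here since it separates them from ADAM family members without protease activity. Capitals mark the codons of the 3 zinc-binding histidines and of the catalytic glutamate.
ADAM17: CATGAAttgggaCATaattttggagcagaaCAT
ADAM10: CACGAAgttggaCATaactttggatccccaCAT
The ADAM17 stretch lies in exon 11 at chr2:9510078-9510110 on the minus strand and codes for residues 405 to 415. That of ADAM10 codes for residues 383 to 393 and is split between exons 9 and 10, at chr15:58627881-58633225 on the minus strand with the intron included.

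The libraries held from 30428114 to 41635177 recovered reads, and the lowest tested member, ERBB3, was covered by 323 to 545 reads per library. All 4 LXR target genes checked were called higher with GW3965, with ABCA1, a cholesterol exporter, going from 3.43 ± 1.34 to 16.5 ± 2.37 RPKM (SD, n = 5 each). Of 5 epithelial markers, 4 were above 0.5 RPKM, and CDH1 (E-cadherin) lay at 0.249 ± 0.126 in DMSO and 0.322 ± 0.172 with GW3965. Of the 5 prostate luminal and androgen-response markers, KLK3, which encodes prostate-specific antigen, had 0 reads in every library. Of the 5 mesenchymal and stromal markers, 3 were above 0.5 RPKM. The 5 summed to between 65.7 and 81.7 RPKM in DMSO and between 73.5 and 83.3 with GW3965, most of it VIM (vimentin). Of the 5 immune and endothelial markers, 1 (PECAM1) reached 0.5 RPKM, and their summed level ranged from 0.63 to 0.761 RPKM in DMSO and from 0.431 to 0.818 with GW3965.

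No member passed the test for a difference between GW3965 and DMSO. Beside these 0 of 8 calls, 0.157% of all tested genes (32 of 20402) passed an adjusted p of 0.05 in limma (Benjamini-Hochberg over all tested genes), 30 of them higher and 2 lower. At an unadjusted p under 0.05 the members again counted 0 of 8, where 6.99% of all tested genes passed. With voom, limma's count-based variant, run on the recovered reads, no member was called and 1 (ERRFI1) had an unadjusted p under 0.05. Groups of libraries that did not overlap were found for 0 of 8 members, and 1.84% of all tested genes had them. In bulk RNA, fewer cells with a transcript and less of it per cell cannot be told apart. The members' log2 fold changes were positive for 7 genes and negative for 1, with a median of 0.07, while over all tested genes 51.1% were positive and the median was 0.00. The highest upper limit of a member's 95% interval was 0.55, for ERRFI1. For AREG, which encodes the EGFR ligand amphiregulin, the log2 fold change was 1.15 with an interval from 0.95 to 1.35.

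**Figure D1:**
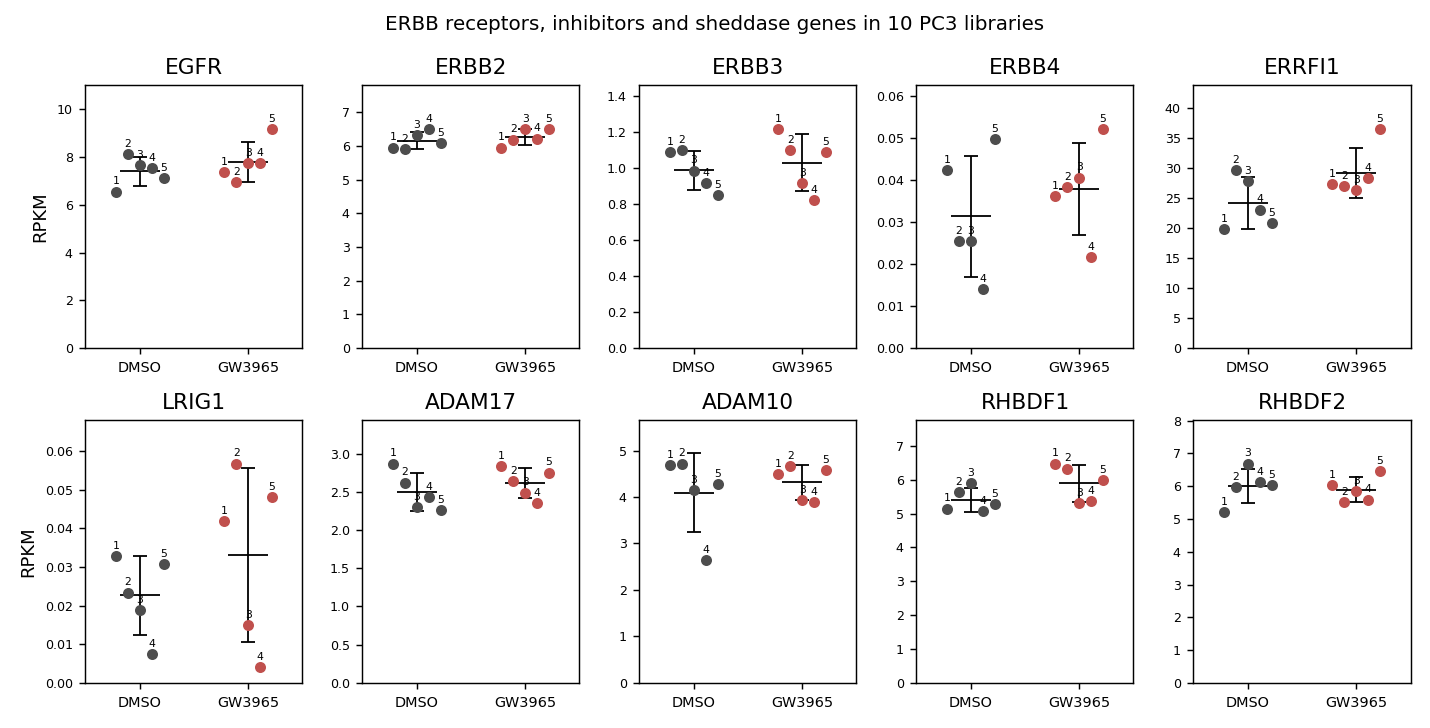
Level of each of the 10 member genes in RPKM (vertical axes, each from 0) in the 5 DMSO and 5 GW3965 libraries, with points numbered by replicate and bars giving mean ± SD. The 2 groups overlap in every panel, and ERBB4 and LRIG1 stay below 0.06 RPKM.

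EGFR (chromosome 7, 55019021 to 55211628, plus strand) was the most abundant receptor. DMSO libraries 1 to 5 read 6.56, 8.12, 7.67, 7.55 and 7.11 RPKM. GW3965 libraries 1 to 5 read 7.38, 6.96, 7.75, 7.76 and 9.19 RPKM. Apart from GW3965 library 5, the highest of all, the treated libraries lay inside the DMSO range. The means were 7.40 ± 0.593 and 7.81 ± 0.838 RPKM, a log2 fold change of 0.07 (SE 0.08, 95% interval −0.11 to 0.26, limma adjusted p = 0.933). On the linear scale of RPKM + 0.1 this was 1.05-fold, with an interval from 0.93 to 1.19. Without GW3965 library 5 the log2 value was 0.014. Each EGFR value rested on 3609 to 5485 reads, so counting error was small beside the spread between libraries.

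ERBB2 (chromosome 17, 39687914 to 39730426, plus strand), the preferred partner of the other receptors, had the tightest values of the set in proportion to its level. The DMSO libraries read 5.95, 5.90, 6.33, 6.51 and 6.09 RPKM. The GW3965 libraries read 5.95, 6.19, 6.51, 6.22 and 6.49 RPKM. The groups covered nearly the same range, with means of 6.16 ± 0.26 and 6.27 ± 0.231 RPKM. The log2 fold change was 0.03 (SE 0.05, 95% interval −0.09 to 0.14, adjusted p = 0.965), or 1.02-fold with an interval from 0.94 to 1.10.

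ERBB3 (chromosome 12, 56076799 to 56103505, plus strand), a receptor for the neuregulins, was present at a much lower level than EGFR and ERBB2. Its DMSO libraries read 1.09, 1.10, 0.987, 0.918 and 0.851 RPKM. With GW3965 they read 1.22, 1.10, 0.920, 0.822 and 1.09 RPKM. The highest and the lowest value of all 10 were both in treated libraries. The means were 0.988 ± 0.107 and 1.03 ± 0.158 RPKM (log2 fold change 0.05, SE 0.13, 95% interval −0.23 to 0.33, adjusted p = 0.977). This direction was negative, at −0.010, without GW3965 library 1.

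ERBB4 (chromosome 2, 211375717 to 212538841, minus strand), the other neuregulin receptor, was covered by 7 to 22 reads per library. It read 0.0423, 0.0254, 0.0254, 0.0141 and 0.0498 RPKM in DMSO. With GW3965 it read 0.0362, 0.0384, 0.0406, 0.0217 and 0.0522 RPKM. The groups overlapped through most of their range, and an exact permutation test of the means (0.0314 and 0.0378 RPKM, two-sided, n = 5 each) gave p = 0.468. The smallest p that 5 against 5 libraries allow is 0.00794.

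EGFR and ERBB2 made up most of the receptor RNA in every library, in much the same shares. Taken as a share of the summed RPKM of the 4 receptors, EGFR made up 50.7% ± 1.97 in DMSO and 51.4% ± 2.2 with GW3965 (SD, n = 5 each). The difference of 0.725 percentage points was within the spread between libraries (exact permutation test, two-sided, p = 0.611). ERBB2 took 42.3% ± 1.92 and 41.5% ± 1.89 (exact p = 0.5). The share of ERBB3 was 6.79% ± 0.821 in DMSO and 6.83% ± 1.16 with GW3965 (exact p = 0.968). ERBB4 made up 0.219% ± 0.108 and 0.248% ± 0.0612 (exact p = 0.611). These 4 p-values were not adjusted, since none passed. The smaller shares varied more in proportion, from 5.55 to 8.36% for ERBB3 and from 0.0942 to 0.353% for ERBB4 over the 10 libraries. The largest EGFR share, 54.6%, was in GW3965 library 5 and the smallest, 48.1%, in DMSO library 1. Without GW3965 library 5 the difference in the EGFR share was −0.071 points.

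**Figure D2:**
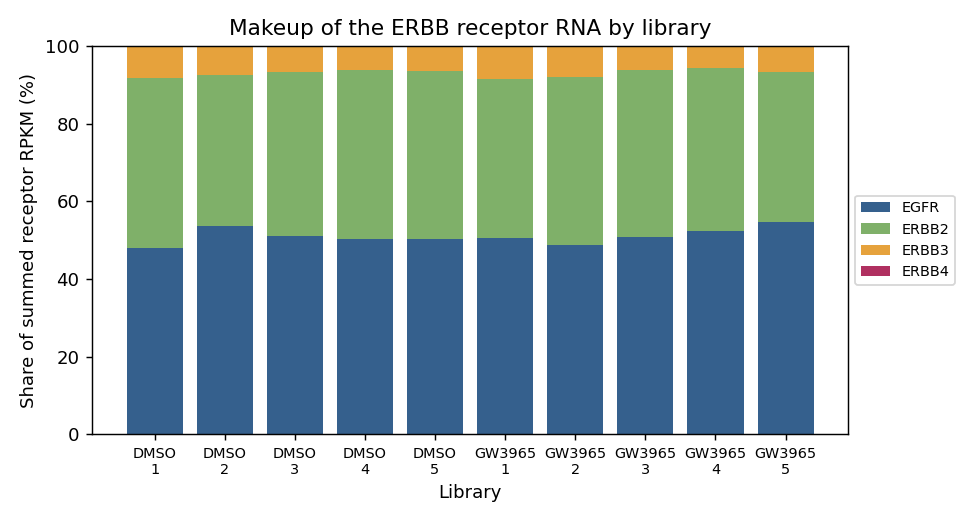
Share of each ERBB receptor in the summed RPKM of the 4 receptors (vertical axis, percent, from 0 to 100) in each library (horizontal axis). EGFR takes from 48.1 to 54.6% in the 10 libraries, ERBB2 most of the rest, and the band of ERBB4 is too thin to see.

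ERRFI1 (chromosome 1, 8004404 to 8026308, minus strand), the intracellular EGFR inhibitor and itself a gene known to be induced by EGFR signaling, was the most abundant member and had the largest difference. The DMSO libraries read 19.9, 29.7, 27.9, 23.1 and 20.8 RPKM. The GW3965 libraries read 27.4, 27.1, 26.4, 28.4 and 36.6 RPKM. All 5 treated libraries lay above the DMSO median, but DMSO libraries 2 and 3 reached into the treated range. The means were 24.3 ± 4.35 and 29.2 ± 4.20 RPKM, a log2 fold change of 0.27 (SE 0.13, 95% interval −0.01 to 0.55), or 1.21-fold. This did not pass the test across all genes in limma (adjusted p = 0.729, unadjusted p = 0.0571). With voom the log2 fold change was 0.29 and the adjusted p was 0.86. GW3965 library 5 stood above the other treated libraries, and leaving it out gave 0.188 on the log2 scale, the lowest value of all settings tried.

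LRIG1 (chromosome 3, 66378797 to 66501263, minus strand) was close to absent. Its recovered reads were 8, 7, 4, 2 and 7 in DMSO and 10, 16, 4, 1 and 11 with GW3965. In RPKM, the means were 0.0226 ± 0.0102 and 0.0332 ± 0.0226 (exact permutation test, two-sided, n = 5 each, p = 0.357). The lowest library of each group, number 4, held 2 and 1 reads. No difference was detected at this depth. Of the exon bases of LRIG1, 12.9% overlap exons of SLC25A26 on the opposite strand, so that even these few reads cannot be assigned with certainty.

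ADAM17 (chromosome 2, 9488486 to 9556732, minus strand), the sheddase of amphiregulin, TGF-alpha and HB-EGF, read 2.87, 2.62, 2.30, 2.43 and 2.26 RPKM in the DMSO libraries. It read 2.84, 2.64, 2.49, 2.35 and 2.75 RPKM in the GW3965 libraries. The treated values lay wholly inside the DMSO range. The means were 2.50 ± 0.252 and 2.61 ± 0.197 RPKM, with a log2 fold change of 0.06 (SE 0.08, 95% interval −0.12 to 0.25, adjusted p = 0.944). On the linear scale the interval ran from 0.92-fold to 1.19-fold.

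ADAM10 (chromosome 15, 58588807 to 58749978, minus strand), the sheddase of EGF and betacellulin, had 1 library that stood apart. The DMSO libraries read 4.68, 4.72, 4.15, 2.65 and 4.28 RPKM. The GW3965 libraries read 4.50, 4.67, 3.94, 3.89 and 4.58 RPKM. DMSO library 4 was the lowest of all 10. The means were 4.10 ± 0.846 and 4.31 ± 0.37 RPKM, with a log2 fold change of 0.10 (SE 0.14, 95% interval −0.22 to 0.41, adjusted p = 0.955). Without DMSO library 4 it was −0.049 (adjusted p = 0.922), so the positive sign rested on that library.

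RHBDF1 (chromosome 16, 58059 to 76355, minus strand), 1 of the 2 iRhoms, read 5.15, 5.64, 5.90, 5.07 and 5.29 RPKM in DMSO. With GW3965 it read 6.48, 6.33, 5.31, 5.36 and 6.0 RPKM. All 5 treated libraries lay above the DMSO median, yet libraries 3 and 4 stayed within the DMSO range. Its means were 5.41 ± 0.351 and 5.90 ± 0.543 RPKM (log2 fold change 0.12, SE 0.07, 95% interval −0.05 to 0.28, adjusted p = 0.828).

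RHBDF2 (chromosome 17, 76470891 to 76501790, minus strand) was the 1 member with a negative value. It read 5.21, 5.96, 6.69, 6.13 and 6.04 RPKM in DMSO. With GW3965 it read 6.03, 5.51, 5.86, 5.59 and 6.45 RPKM. The treated values again lay inside the DMSO range. The means were 6.0 ± 0.531 and 5.89 ± 0.377 RPKM (log2 fold change −0.03, SE 0.07, 95% interval −0.19 to 0.14, adjusted p = 0.979). When libraries were scaled to equal RPKM sums, the value was 0.111, in a setting that moved the median of all tested genes to 0.14 on the log2 scale.

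**Figure D3:**
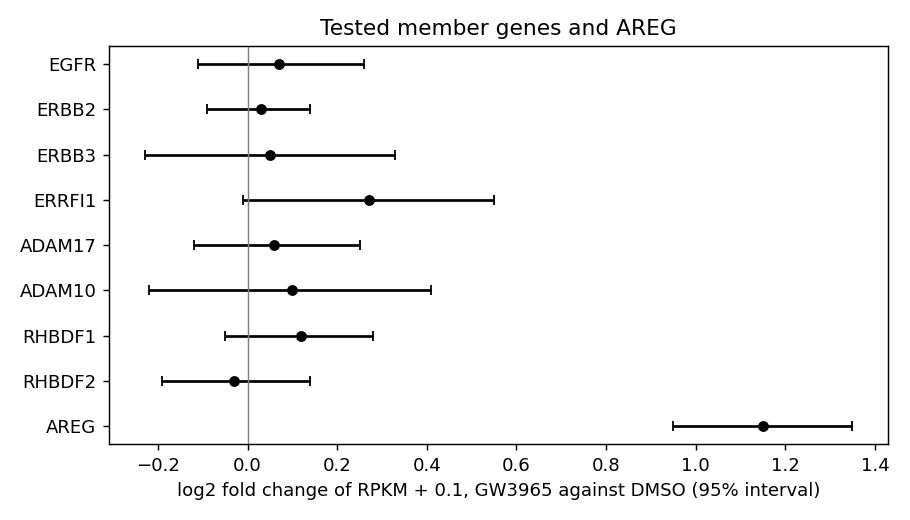
Log2 fold change of RPKM + 0.1, GW3965 against DMSO (horizontal axis), for the 8 tested members and AREG, with 95% intervals from limma as bars. All 8 member intervals include 0 and end at or below 0.55, while that of AREG starts at 0.95.

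In RPKM, which is a level per length of gene, the members fell into an order over the 10 libraries. ERRFI1 led with 26.7 ± 4.79 RPKM (SD, n = 10), which placed it at rank 1635 of the 20402 tested genes. EGFR followed with 7.61 ± 0.717 RPKM at rank 5498, below ERRFI1 and above ERBB2 in 10 of 10 libraries. Next came ERBB2 (6.21 ± 0.24), RHBDF2 (5.95 ± 0.438) and RHBDF1 (5.65 ± 0.501 RPKM). These neighbors overlapped, with ERBB2 above RHBDF2 in 7 of 10 libraries and RHBDF2 above RHBDF1 in 8 of 10. ADAM10 (4.21 ± 0.626 RPKM) exceeded ADAM17 (2.56 ± 0.222 RPKM) in every library, although the ADAM10 value of DMSO library 4 lay within the ADAM17 range. ERBB3 stood at 1.01 ± 0.129 RPKM and rank 16005, 29.2 times above ERBB4 (0.0346 ± 0.0125 RPKM). ERBB4 and LRIG1 (0.0279 ± 0.0174 RPKM) overlapped.

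The length behind a level matters for some members. The lengths implied by the deposited values were 1.27 times those of GENCODE 29 for EGFR, 1.30 times for ERBB3 and 1.49 times for ADAM17. With the GENCODE 29 lengths, a setting chosen after the values were seen, the order of the 10 members was the same, with EGFR at 9.68, ADAM17 at 3.80 and ERBB3 at 1.31 RPKM, and the EGFR share of the receptors ran from 53 to 59.5%. Exons of other genes on the opposite strand cover 12.3% of the exon bases of ADAM17 (IAH1), 5.53% of those of ERBB2 (MIEN1) and 3.7% of those of ERRFI1 (AL034417.4). The libraries were stranded, and the strand setting of the counting is not given in the sources used here.

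Some pairs of members varied together from library to library, while others, such as EGFR and ERBB3 (Pearson r = −0.025), did not. Over the 10 libraries, with each value taken as its deviation from the group mean of log2(RPKM + 0.1), EGFR and ERRFI1 had the highest correlation of the 28 pairs of tested members (Pearson r = 0.877, Spearman rho = 0.891). Leaving out DMSO library 1 and GW3965 library 5, the ends of the EGFR range, gave r = 0.689. ERBB3 and ADAM17 followed (r = 0.863, rho = 0.915, and 0.77 without DMSO library 5 and GW3965 library 4). The lowest was that of ERBB2 and ADAM10 (r = −0.684, rho = −0.673), which was −0.428 without DMSO libraries 2 and 4. These values are given as a description with no p, since the pairs were picked as the extremes and the values of 1 library share its depth, scaling and RNA.

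**Figure D4:**
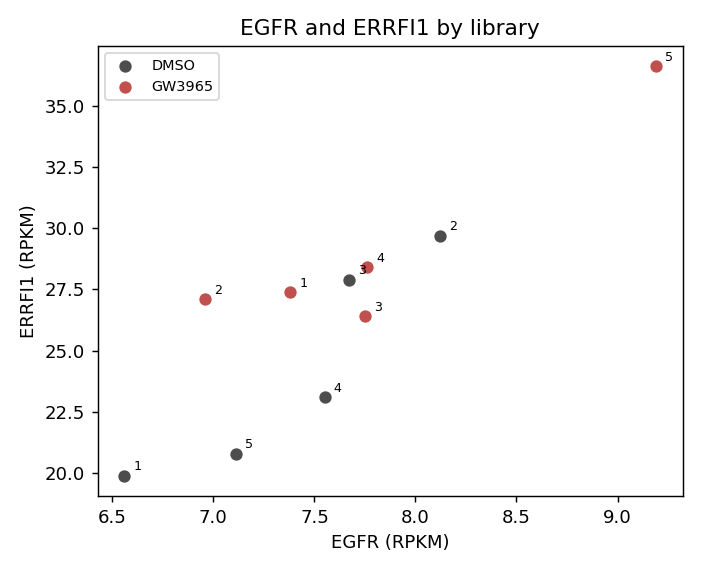
ERRFI1 (vertical axis, RPKM) against EGFR (horizontal axis, RPKM) in the 10 libraries, colored by group and numbered by replicate. The library lowest in both genes is DMSO library 1 and the highest in both is GW3965 library 5.

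Across the tested genes, the 3 whose deviations were most like those of EGFR over the 10 libraries were RPSAP63 (r = 0.981), MED13L (r = 0.973), which encodes a Mediator subunit, and RPSAP76 (r = 0.969). RPSAP63 and RPSAP76 are pseudogenes of the ribosomal protein gene RPSA, and their reads cannot be told apart with certainty from those of near-identical copies. ERRFI1 was not among these 3.

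Of the 5 pathway lists, the ligands were the one in which a gene passed the test. Of 11 ERBB ligands, 6 were tested and 1 was called, AREG, which went from 5.23 ± 0.41 to 11.8 ± 1.35 RPKM (2.22-fold, limma adjusted p = 0.00021). The ratio of AREG to EGFR in RPKM, given as a description, ran from 0.624 to 0.847 in the DMSO libraries and from 1.03 to 1.87 with GW3965. With the deposited lengths, the ratio was thus below 1 in all 5 DMSO libraries and above 1 in all 5 treated ones. AREG alone also separated the groups and EGFR was not called, so the ratio is no separate result. With the GENCODE 29 lengths it ran from 0.488 to 0.663 in DMSO and from 0.805 to 1.46 with GW3965, and was above 1 in 4 of the 5 treated libraries, with GW3965 library 5 the exception. TGFA, the gene of TGF-alpha, had means of 3.13 ± 0.508 and 3.97 ± 0.521 RPKM (log2 fold change 0.34, unadjusted p = 0.0167, adjusted p = 0.551 in limma). BTC, the gene of betacellulin, had means of 1.02 ± 0.22 and 1.34 ± 0.119 RPKM (0.38, unadjusted p = 0.0229, adjusted p = 0.58 in limma). Neither passed. NRG2, a neuregulin, had the lowest value, −0.04, and the list's median was 0.25. The 5 untested ligands had means of at most 0.134 RPKM, and NRG3 had 0 reads in every library.

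In the other 4 pathway lists no gene was called, beside the 0.157% of all tested genes. Of 11 other attenuators of the receptors, 9 were tested, with a median log2 fold change of −0.01. Their values ran from −0.04 (LRIG3, a relative of LRIG1) to 0.10 (SOCS4, a SOCS-box protein that promotes EGFR degradation). Of the relatives of LRIG1, LRIG2 stood at 3.41 ± 0.245 and 3.61 ± 0.274 RPKM and LRIG3 at 0.738 ± 0.0762 and 0.716 ± 0.106 RPKM. Of 9 partners of the sheddases, 7 were tested, with a median of −0.02. The lowest was FRMD8, which binds the iRhoms and keeps the sheddase complex at the surface (8.38 ± 1.29 and 7.58 ± 0.511 RPKM, log2 fold change −0.13, adjusted p = 0.87 in limma). TSPAN15, a tetraspanin partner of ADAM10, and TSPAN5, another of the same group, were the highest at 0.01 each. TIMP3, the secreted inhibitor of ADAM17, had at most 3 reads in any library.

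Among 10 other ADAM proteases with a catalytic site, 6 were tested, with a median of −0.08. ADAM9 had 10.4 ± 1.28 RPKM in DMSO and 12.7 ± 0.919 with GW3965, with groups that did not overlap, as in 1.84% of all tested genes (log2 fold change 0.29, unadjusted p = 0.00957, adjusted p = 0.446 in limma). ADAM19 had 22.3 ± 4.20 and 17.4 ± 2.83 RPKM, the lowest value of the list (−0.35, unadjusted p = 0.0273, adjusted p = 0.61 in limma). Neither passed the adjusted test. ADAM15, at 24.9 ± 2.43 and 25.7 ± 2.06 RPKM, was among the tested ADAM genes the most abundant, well above ADAM10 and ADAM17. Of 14 adaptors and effectors that bind the receptors or act next to them, 13 were tested, 11 with positive and 2 with negative values and a median of 0.08. They ran from −0.01 for the adaptor SHC1 to 0.27 for ERBIN, an ERBB2-binding scaffold (5.48 ± 1.18 and 6.52 ± 0.543 RPKM, unadjusted p = 0.0944, adjusted p = 0.786 in limma). Of the 14 list genes under the minimum of 0.5 RPKM, 2 had an exact permutation p under 0.05, and neither passed after adjustment over these 14 genes. PIK3R2, a regulatory subunit of PI3-kinase, had means of 0.117 ± 0.0184 and 0.0802 ± 0.0156 RPKM (two-sided exact permutation p = 0.0159, adjusted p = 0.223) from 12 to 27 reads per library. ADAM33 had means of 0.0435 ± 0.0176 and 0.0699 ± 0.0179 RPKM (two-sided exact permutation p = 0.0476, adjusted p = 0.333) from 4 to 21 reads per library. The groups overlapped for both.

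**Figure D5:**
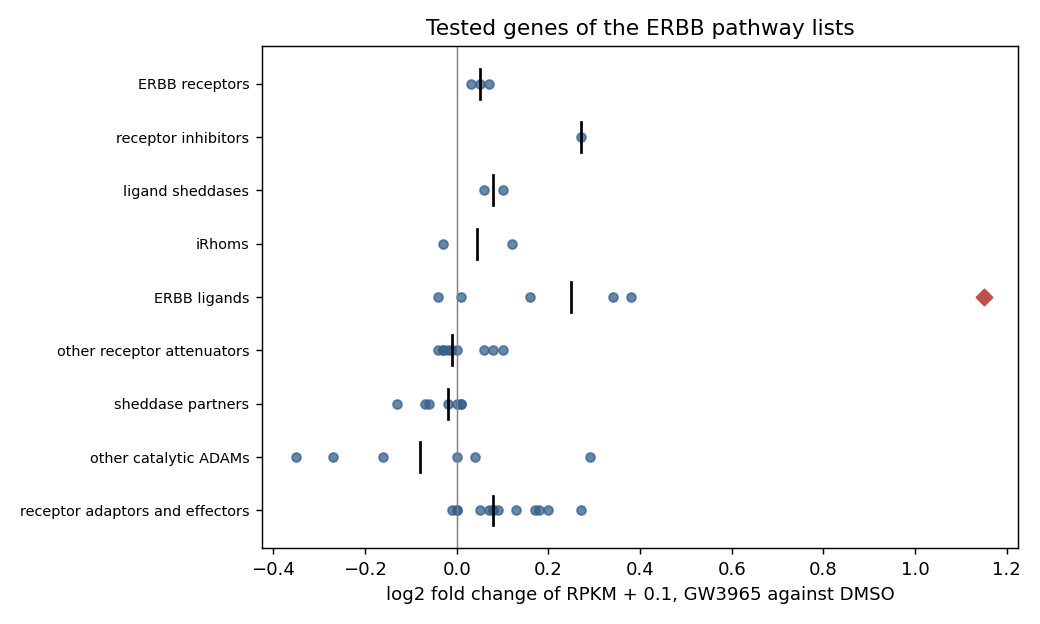
Log2 fold change of RPKM + 0.1, GW3965 against DMSO (horizontal axis), of each tested gene (points) in the 4 groups of members and the 5 other pathway lists, with a black line at each median. The red diamond, AREG at 1.15, is the 1 gene past the adjusted threshold, and all others lie between −0.35 and 0.38.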

How the data were processed

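RNA of PC3 cells was analysed in 10 libraries, 5 per condition, grouped by the sample titles. The authors sequenced stranded libraries of ribosomal RNA-depleted total RNA as single reads and deposited RPKM values of 62656 human genes, 1 column per library (0 columns were left unmapped). The methods name a mouse genome. The submitters' processing notes name hg38, HISAT2 2.1.0, HTSeq 0.11.2 and DESeq2 1.22.2, and the sample records name polyA RNA. The annotation release is not given in the sources used here.

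The deposited RPKM values were tested with limma 3.58.1 in R 4.3.3 (trend of the prior variance, two-sided, Benjamini-Hochberg adjustment, threshold 0.05) on log2(RPKM + 0.1). Genes entered where their mean reached 0.5 RPKM. A fold change on this scale understates that of low genes. Members, lists and tests were chosen with earlier results of these data known. Whole reads were recovered from the values (100% of those above 0 came out whole, within 0.0001) and tested with voom, which called 39 genes. Intervals are at 95%. Shares and untested genes were compared with exact permutation tests over all 252 labellings. No pair of libraries was near-identical (chi-square per degree of freedom 7.64 or more). Named are all members, the list genes with an adjusted or unadjusted p (limma, or the exact test for genes under the minimum) under 0.05, the highest and lowest of each list, and the 3 genes most like EGFR. LRIG2, TSPAN5, ADAM15, NRG3, TIMP3 and the overlapping genes were added after their values were seen. The procedure was tested on simulated data with known changes.

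The alternatives were a pseudocount of 1 or 0.01, the filter left out or raised to 1 RPKM, quantile normalization, equal RPKM sums, the replicate number as a block, no variance trend, library weights, voom, the first principal component as a covariate, the loss of each library and of 3 libraries together, and GENCODE 29 lengths.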

Additional observations from a re-analysis of the deposited data

Results flagged for a closer look

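In 2 of the 20 groups of 5 libraries tested over the 10 members, 1 library stood apart from the others by Dixon's test on log2(RPKM + 0.1) (critical ratio 0.71), where chance gives about 1. ERRFI1 in GW3965 library 5 (36.6 RPKM, the others at most 28.4) had a ratio of gap to range of 0.776 on that log2 scale. ADAM10 in DMSO library 4 (2.65 RPKM, the others at least 4.15) had a ratio of 0.775. GW3965 library 5 was also the highest library for EGFR, at 9.19 RPKM. What sets these libraries apart was not tested.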

How the results depend on the processing

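No member was called under any of 22 alternatives, and AREG was the 1 pathway list gene called in each. The count of all tested genes called, 32, was 21 without a filter, 20 without a variance trend, 56 with library weights, 83 with the first principal component as a covariate, 18 without the 3 libraries lowest on that component (DMSO 1, GW3965 1 and GW3965 2), and from 17 to 38 with 1 library left out. It moved by over 1.5 times without DMSO library 3 (18) and without GW3965 libraries 2, 3 or 4 (17, 19 and 17). With the replicate block it was 16. Same-numbered libraries correlated at between −0.138 and 0.16, so the numbers were not taken as pairs. Among the GW3965 libraries, 1 of 5 DMSO libraries correlated best with that of its own number. The EGFR share differed by 0.725 points with the replicate block too (p = 0.75 in an exact sign-flip permutation, where 0.0625 is the smallest possible), and by −0.071 to 1.45 with 1 library left out. Signs turned for 3 members, none of them called. ERBB3 read −0.019 with library weights, −0.028 without the 3 libraries and from −0.010 to 0.119 with 1 left out. ADAM10 read −0.020 with library weights and from −0.049 to 0.154 with 1 left out. RHBDF2 read 0.111 with equal RPKM sums, and with 1 left out from −0.074 to 0.015, the latter without DMSO library 3. EGFR kept its sign, between 0.014 (without GW3965 library 5) and 0.113 with 1 left out. What moved these counts and signs was not tested, and a fit with libraries left out also rests on fewer of them. Depth limits ERBB4 and LRIG1, with at most 22 and 16 reads per library. Intervals cover the spread between these libraries only.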
